A study of Mus musculus with 12 samples.

Results

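The Hox genes of the 4 mouse clusters were examined in fibroblasts purified from lung. Members were the rows of the deposited expression table whose symbol was Hox followed by a cluster letter, a to d, and a paralog number. The table listed 37 such genes among 20606, with 11 in cluster A on chromosome 6, 10 in cluster B on chromosome 11, 7 in cluster C on chromosome 15 and 9 in cluster D on chromosome 2. Hoxc11 and Hoxc12 are not analysed here. The study concerned the part that lung fibroblast subgroups play in breast cancer metastasis to the lung, with an emphasis in its title on matrix fibroblasts that carry tryptophan 2,3-dioxygenase. RNA of purified cells was sequenced in bulk in 12 libraries, 3 in each of 4 groups.

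The groups were matrix fibroblasts of mice with lung metastasis (M-MF), matrix fibroblasts of normal mice (N-MF), the MyoF subgroup of mice with lung metastasis (M-MyoF) and the MyoF subgroup of normal mice (N-MyoF). All 4 came from lung and were processed in the same way, from polyA RNA by the SMART-seq2 method. The sources used here do not state strain, age, the tumour cells or the markers used for sorting. Whether the 3 libraries of a group are separate mice is not labelled, and p-values speak only of the spread among libraries, which may be technical. Values are FPKM, fragments scaled for transcript length and for the mapped fragments of the library. In bulk RNA, fewer cells of a type and less RNA per cell cannot be told apart.

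Hox genes encode homeodomain transcription factors that give cells a positional identity along the head-to-tail axis. Their order along each cluster matches their order of use in the embryo, low paralog numbers toward the head and high numbers toward the tail, and adult fibroblasts keep part of this code as a record of where in the body they arose. Hox proteins bind DNA together with TALE homeodomain partners of the Meis, Pbx and Pknox families, Polycomb complexes keep clusters silent where they are not used, and retinoic acid helps to open them. In mouse lung mesenchyme the genes around paralog 5 are the best known: loss of Hoxa5 disturbs the airways and the survival of newborn mice, and Hoxb5 takes part in branching of the airways.

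The labelled subgroups were set against marker lists before the Hox genes were read. The summed level of 7 fibroblast markers lay between 15274.7 and 15396.9 FPKM in M-MF, 21035.2 and 21271.6 in N-MF, 2065.1 and 2088.3 in M-MyoF and 3584.5 and 3640.2 in N-MyoF. The 7 smooth muscle markers, among them Acta2 and Myh11, summed to between 171.9 and 172.6 FPKM in M-MF, 53.6 and 57.6 in N-MF, 2068.7 and 2101 in M-MyoF and 1379.3 and 1417.7 in N-MyoF. The MyoF libraries also held between 15816.7 and 19970.4 FPKM of 8 airway and alveolar epithelial markers, against between 2420.6 and 2945.9 in the MF libraries. Library sums over all genes ranged between 528176 and 618478 FPKM, and the read depth is unknown.

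Promoter sequence is shown first for the genes on which the results turn. Hoxa10 has 2 annotated starts and was the Hox gene that separated metastatic from normal lung most widely. Hoxa9 and Hoxa11 are its neighbours on either side and were at 0.25 FPKM or less in every library. Hoxc4 was the Hox gene that separated MF from MyoF in the direction opposite to most others, and Hoxa2 moved in opposite directions in the 2 subgroups. Each window runs 250 bases before to 50 after the annotated start, from RefSeq on GRCm38.p6, and reads 5′ to 3′ along the gene. Capitals mark letters that match a PBX-HOX motif (TGATTNAT), a MEIS motif (TGACAG) or a TATA motif (TATAAA), searched on both strands; the matches do not overlap in these windows.
The Hoxa10 start at chr6:52240805-52241104, minus strand, is the upstream one and has no match.
Hoxa10, upstream start: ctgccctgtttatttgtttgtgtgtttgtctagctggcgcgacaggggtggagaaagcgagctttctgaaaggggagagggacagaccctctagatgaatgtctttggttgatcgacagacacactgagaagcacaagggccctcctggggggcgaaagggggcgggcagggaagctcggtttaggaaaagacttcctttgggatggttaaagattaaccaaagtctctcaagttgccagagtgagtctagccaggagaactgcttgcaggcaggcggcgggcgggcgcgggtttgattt
The Hoxa10 start at chr6:52234890-52235189, minus strand, has 1 TATA match at position 91 of the window. That match reads TATAAA on the strand opposite to the gene and lies well before the annotated start, which follows position 250.
Hoxa10, downstream start: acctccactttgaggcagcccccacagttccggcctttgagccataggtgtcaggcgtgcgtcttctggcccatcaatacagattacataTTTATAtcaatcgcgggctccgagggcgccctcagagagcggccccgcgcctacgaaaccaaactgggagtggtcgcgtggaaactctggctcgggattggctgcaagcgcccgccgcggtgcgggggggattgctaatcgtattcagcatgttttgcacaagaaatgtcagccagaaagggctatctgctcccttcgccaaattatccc
The neighbouring Hoxa9 window is chr6:52227321-52227620, minus strand, with no match.
Hoxa9: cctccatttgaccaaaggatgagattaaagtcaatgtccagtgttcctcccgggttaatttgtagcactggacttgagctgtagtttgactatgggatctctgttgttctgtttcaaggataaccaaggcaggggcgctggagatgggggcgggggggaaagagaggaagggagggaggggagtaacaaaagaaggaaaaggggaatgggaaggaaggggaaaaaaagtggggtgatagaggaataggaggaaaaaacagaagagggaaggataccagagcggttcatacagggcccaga
The neighbouring Hoxa11 window is chr6:52245761-52246060, minus strand, with no match.
Hoxa11: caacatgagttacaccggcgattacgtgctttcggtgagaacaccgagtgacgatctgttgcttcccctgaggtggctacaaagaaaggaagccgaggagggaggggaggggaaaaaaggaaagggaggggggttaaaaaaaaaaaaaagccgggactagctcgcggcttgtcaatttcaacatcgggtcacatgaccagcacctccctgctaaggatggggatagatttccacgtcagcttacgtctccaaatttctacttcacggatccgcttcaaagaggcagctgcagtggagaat
The Hoxc4 window is chr15:103034145-103034444, plus strand, with no match. It lies at a start inside the gene, which RefSeq places at 103018097 to 103036856. No window at the upstream end of Hoxc4 was available, so motifs there are unknown.
Hoxc4: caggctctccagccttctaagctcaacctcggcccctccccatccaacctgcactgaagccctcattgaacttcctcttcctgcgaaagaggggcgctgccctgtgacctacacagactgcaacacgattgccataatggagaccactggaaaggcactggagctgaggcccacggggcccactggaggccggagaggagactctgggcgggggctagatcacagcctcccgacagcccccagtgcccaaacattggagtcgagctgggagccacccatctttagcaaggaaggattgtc
The Hoxa2 window is chr6:52164782-52165081, minus strand, with a PBX-HOX match at position 140 and a MEIS match at position 207.
Hoxa2: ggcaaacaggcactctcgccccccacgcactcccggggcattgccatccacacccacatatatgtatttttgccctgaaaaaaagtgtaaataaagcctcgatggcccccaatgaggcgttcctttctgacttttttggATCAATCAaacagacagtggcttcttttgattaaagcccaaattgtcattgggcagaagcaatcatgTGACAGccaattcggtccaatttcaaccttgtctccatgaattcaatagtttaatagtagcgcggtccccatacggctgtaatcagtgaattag

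The promoter table used here held 24 windows for 22 of the 37 Hox genes. The PBX-HOX motif stood in 2 of the 24 Hox windows (8.33%), against 3.22% of all 32851 promoter windows of the same length. The MEIS motif stood in 2 Hox windows (8.33%), against 19.2% of all windows, and the TATA motif in 4 (16.7%), against 13.6%. The median Hox window was 57.6% G or C with 14.5 CpG sites, against 52.7% and 7 over all windows. The Hoxa10 windows had 12 CpG sites at the upstream and 21 at the downstream start, the Hoxa9 window 4 and the Hoxa11 window 15. Gene-level values do not say which Hoxa10 start was used.

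In the libraries of all 4 groups, Hox expression lay mainly in the front and middle of clusters A and B. The MyoF libraries also held markers of other cell types, so these are levels of libraries and not of fibroblasts alone. Cluster A held 25.9 ± 1.01 FPKM in M-MF, 25.8 ± 0.787 in N-MF, 41.1 ± 0.959 in M-MyoF and 31.9 ± 0.802 in N-MyoF, summed over its genes (mean ± SD, n = 3 each). Cluster B held 16.2 ± 0.734 FPKM in M-MF, 25.0 ± 0.427 in N-MF, 55.3 ± 0.444 in M-MyoF and 63.0 ± 0.943 in N-MyoF. The MyoF libraries carried more cluster B expression than any MF library, and within each subgroup the libraries from metastatic lung carried less of it.

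Cluster C summed to 5.13 ± 0.531 FPKM in M-MF and 2.18 ± 0.0608 in N-MF, and stood at 0.86 FPKM or less in every MyoF library. Cluster D stood at 0.67 FPKM or less in every library. Clusters A and B together made up 88.2% of the Hox sum in M-MF, 95.5% in N-MF, 98.8% in M-MyoF and 99.1% in N-MyoF. The ratio of cluster A to cluster B, which a single scaling factor per library leaves as it is, was 1.54, 1.51 and 1.75 in M-MF and 1.02, 1.06 and 1.01 in N-MF. The same ratio was 0.731, 0.742 and 0.756 in M-MyoF and 0.523, 0.497 and 0.5 in N-MyoF. Expression thus leaned toward cluster A in M-MF, was near even in N-MF and leaned toward cluster B in MyoF. In both subgroups it lay further toward A in metastatic than in normal lung, with no overlap between the groups. The cluster A sum includes Hoxa10, at 2.99 FPKM in M-MF, 0 in N-MF, 6.31 in M-MyoF and 0.023 in N-MyoF.

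**Figure D1:**
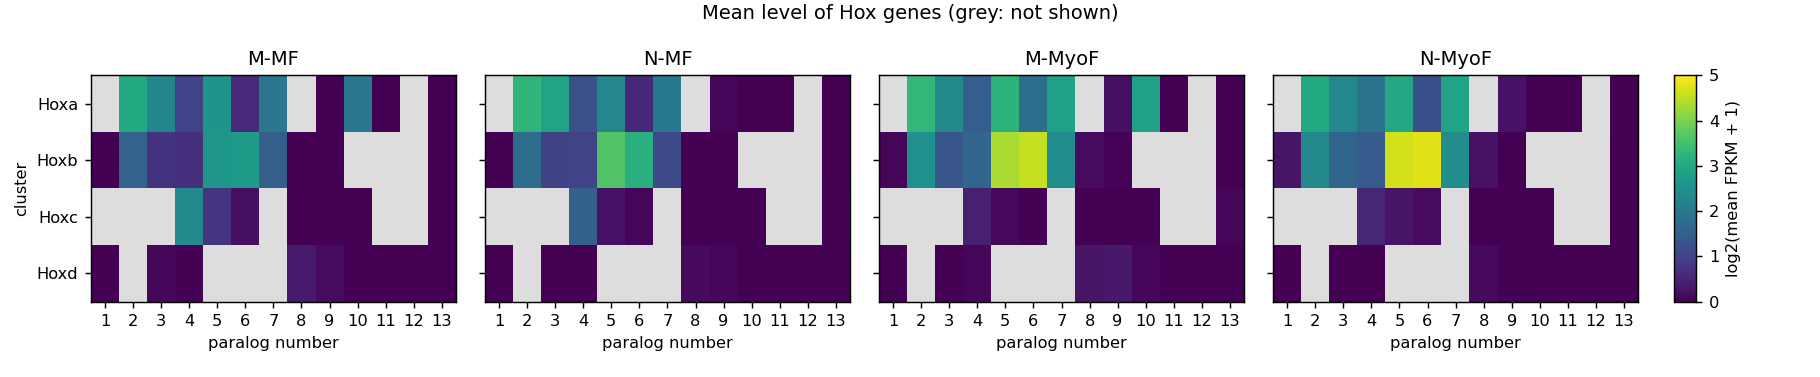
Mean level of 36 Hox genes, as log2(mean FPKM + 1) in colour, by cluster (rows) and paralog number (columns) in M-MF, N-MF, M-MyoF and N-MyoF; grey cells are not shown. Colour is confined mainly to paralogs 2 to 7 of Hoxa and Hoxb in every group, with Hoxa10 at 2.99 FPKM in M-MF and 6.31 in M-MyoF and Hoxc4 at 4.27 in M-MF.

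**Figure D2:**
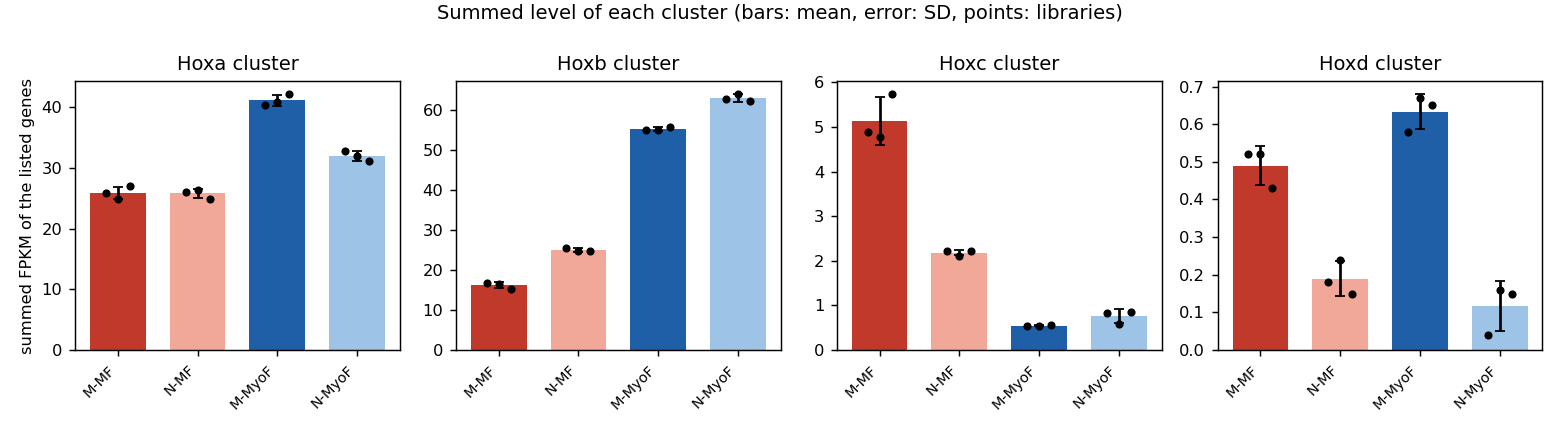
Summed FPKM of the listed genes of each cluster in each library (points), with the group mean (bars) and SD (error lines); the 4 vertical axes differ. Cluster B averaged 16.2 and 25.0 FPKM in M-MF and N-MF and 55.3 and 63.0 in M-MyoF and N-MyoF, and cluster C averaged 5.13 and 2.18 in M-MF and N-MF and 0.547 and 0.757 in M-MyoF and N-MyoF.

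By position along the clusters, paralogs 1 to 3 summed to 16.1 ± 0.368 FPKM in M-MF, 20.3 ± 0.868 in N-MF, 21.9 ± 0.28 in M-MyoF and 20.2 ± 0.636 in N-MyoF. Paralogs 4 to 8 summed to 28.5 ± 0.467 FPKM in M-MF, 32.7 ± 0.502 in N-MF, 68.7 ± 1.15 in M-MyoF and 75.3 ± 0.54 in N-MyoF. The middle of the clusters therefore held most of the Hox expression, and most of the distance between MyoF and MF. Paralogs 9 to 13 summed to 3.17 ± 0.137 FPKM in M-MF, 0.163 ± 0.0702 in N-MF, 6.97 ± 0.37 in M-MyoF and 0.267 ± 0.0493 in N-MyoF. Hoxa10 supplied 94.1% of that posterior sum in M-MF and 90.5% in M-MyoF, and the other 13 posterior genes together ranged between 0.09 and 0.76 FPKM over the 12 libraries.

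Of the 37 genes, 15 reached 1 FPKM in at least 3 libraries and were tested, which left 22 too low for the main tests. Cluster A held 8 of the 15, cluster B 6 (Hoxb2 to Hoxb7) and cluster C 1 (Hoxc4), and no cluster D gene was among them. A gene could enter by the groups in which it was high, so the 15 are not a neutral sample of the family. Hoxa10 reached 1 FPKM only in the 6 libraries from metastatic lung, Hoxc4 only in the 6 MF libraries and Hoxa6 only in the 6 MyoF libraries. Hoxb3 and Hoxb4 each reached it in 7 libraries, those of MyoF and 1 of N-MF. For these genes a difference between those groups was part of how they entered. The highest group mean among the 22 others was 0.68 FPKM.

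The order of the levels differed between the subgroups. In M-MF Hoxa2 was highest at 7.25 ± 0.566 FPKM, ahead of Hoxb6 at 5.78 ± 0.476, Hoxb5 at 5.3 ± 0.455 and Hoxa5 at 5.04 ± 0.0666. In M-MF the libraries of Hoxb5 overlapped those of both Hoxb6 and Hoxa5, so these neighbours in the order were not separated beyond their spread. In N-MF Hoxb5 led at 11.4 ± 0.325 FPKM, ahead of Hoxa2 at 8.61 ± 0.566 and Hoxb6 at 7.99 ± 0.572, and Hoxa2 and Hoxb6 overlapped. In M-MyoF Hoxb6 at 22.6 ± 0.387 FPKM and Hoxb5 at 19.7 ± 0.913 did not overlap, and Hoxa2 at 8.87 ± 0.147 came next. In N-MyoF the same 3 genes led, with Hoxb6 at 26.3 ± 0.86 FPKM above Hoxb5 at 24.1 ± 1.25 without overlap, and Hoxa2 at 7.21 ± 0.367 overlapping Hoxa5 at 7.15 ± 0.408. Hoxb5 and Hoxb6 together were 23.2% of the Hox sum in M-MF, 36.6% in N-MF, 43.3% in M-MyoF and 52.6% in N-MyoF.

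**Figure D3:**
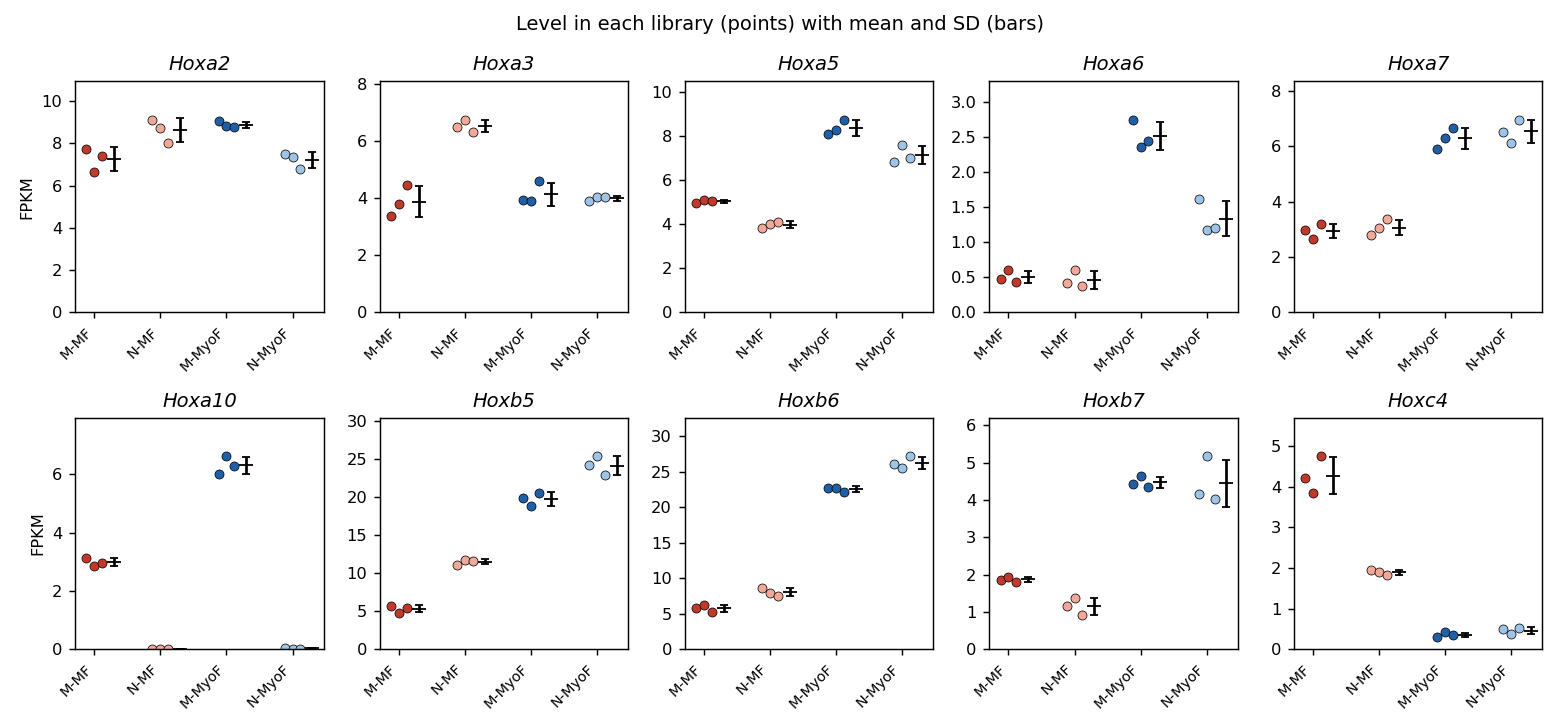
FPKM of 10 Hox genes in each library (points), with the group mean and SD beside them, for M-MF, N-MF, M-MyoF and N-MyoF. Hoxa10 stands at 2.86 to 3.13 in M-MF and 6.02 to 6.62 in M-MyoF and at 0 to 0.05 in the 6 libraries from normal lung.

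Metastatic against normal lung was the comparison the series was designed for, made separately in each subgroup. Hoxa10, a posterior gene known for its role in the uterus and in vertebral patterning, was listed at 3.13, 2.86 and 2.97 FPKM in M-MF, against 0, 0 and 0 in N-MF. It stood at 6.02, 6.62 and 6.28 FPKM in M-MyoF, against 0.05, 0.02 and 0 in N-MyoF. All 6 libraries from metastatic lung were above all 6 from normal lung. The difference on log2(FPKM + 1) was 2.00 ± 0.05 (SE) in MF and 2.84 ± 0.05 in MyoF, with limma adjusted p of 5.33e-13 and 1.91e-14. Because the normal libraries were at or near 0, the size of these differences follows the pseudocount: it was 4.95 in MF and 5.72 in MyoF with a pseudocount of 0.1, and 0.68 and 1.17 with a pseudocount of 5. No fold is given against N-MF, where the gene was listed at 0.

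The genes on either side of Hoxa10 did not share this level. Hoxa9, the next gene toward the front of the cluster, was at 0.02, 0.03 and 0.03 FPKM in M-MF and 0.09, 0.04 and 0.01 in N-MF. It was at 0.14, 0.16 and 0.15 FPKM in M-MyoF and 0.14, 0.25 and 0.15 in N-MyoF. Hoxa11, the next gene toward the tail end, was listed at 0 in every MF library and at most at 0.04 in a MyoF library. Hoxa9, Hoxa11 and the other genes named here that stayed under 1 FPKM were chosen after their values were seen. A RefSeq long noncoding RNA, Gm52902, overlaps Hoxa10 over 1455 bases, and SMART-seq2 does not mark strand, so reads of the pair cannot be told apart.

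Marker sums of some other cell types moved with Hoxa10, and others did not. Atrial muscle and cartilage sums were lower in metastatic lung in both subgroups, as was the fibroblast sum. Macrophage sums overlapped in MF and were lower in M-MyoF than N-MyoF. Airway and alveolar epithelial sums were higher in M-MF than N-MF and lower in M-MyoF than N-MyoF. Mesothelial markers, 8 genes, summed to between 264.9 and 269.5 FPKM in M-MF, 17 and 18.3 in N-MF, 261.9 and 270.6 in M-MyoF and 136 and 140.7 in N-MyoF. Neutrophil markers, 9 genes, summed to between 251.7 and 260.8 FPKM in M-MF, 32.8 and 36.8 in N-MF, 13344.4 and 13691.2 in M-MyoF and 138 and 151.5 in N-MyoF. Carcinoma epithelial markers, 9 genes, summed to between 379.6 and 386.5 FPKM in M-MF, 47 and 50.2 in N-MF, 823.8 and 850.7 in M-MyoF and 200.3 and 203.4 in N-MyoF. Endothelial markers, 7 genes, summed to between 216.9 and 221.5 FPKM in M-MF, 160.7 and 163.6 in N-MF, 457.3 and 464.8 in M-MyoF and 381.8 and 393.4 in N-MyoF. Each of these 4 sums, and the smooth muscle sum, was higher in metastatic lung in both subgroups without overlap. The members did not all follow their sums. In MF, 7 of 7 tested mesothelial markers, 8 of 9 neutrophil, 6 of 8 carcinoma epithelial and 5 of 7 endothelial markers rose, beside 46.3% of all tested genes. In MyoF, 6 of 7 mesothelial and 9 of 9 neutrophil markers rose, but 3 of 8 carcinoma epithelial markers rose and 3 fell, and 4 of 7 endothelial markers rose and 3 fell, beside 49.1% of all tested genes higher and 31.6% lower. The carcinoma epithelial sum in MyoF lay mainly with 2 keratins, Krt8 at 387.4 FPKM in M-MyoF against 23.0 in N-MyoF and Krt18 at 292.8 against 24.5, while the adhesion gene Cdh1 was at 5.6 in M-MyoF against 7.14 in N-MyoF. No marker of the 4 lists was at 0 in any group. Their part in the Hoxa10 difference was not tested.

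In MF, 12 of the 15 tested Hox genes passed the test (adjusted p under 0.05 by limma over 13300 genes) between M-MF and N-MF, 5 higher and 7 lower, where 78.1% of all tested genes passed, 46.3% higher and 31.8% lower. The Hox share was close to that of all genes. On log2(FPKM + 1), Hoxa10 alone reached 2-fold, where 11.9% of all genes did. Hoxb5 joined it, for a count of 2, under each of 3 other scalings of the libraries (to equal sums, by median ratios and by quantiles). It also did so without M-MF replicate 1, M-MF replicate 3 or N-MF replicate 1. The count follows the pseudocount as well, since Hoxb5 was at -1.1 with 0.1 and Hoxa10 at 0.68 with 5. As plain means, Hoxb5 was at 5.3 FPKM in M-MF against 11.4 in N-MF, and Hoxc4 at 4.27 against 1.89. The median difference of the 15 was -0.20 on the log2 scale, against 0.08 over all genes.

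Hoxc4, a middle cluster C gene known from mice for its part in the oesophagus and the neck vertebrae, was at 4.22, 3.85 and 4.75 FPKM in M-MF, against 1.95, 1.89 and 1.83 in N-MF. The groups did not overlap, and the log2 difference was 0.86 ± 0.07 (limma adjusted p = 6.69e-08). In MyoF it was at 0.3, 0.41 and 0.35 FPKM in M-MyoF, against 0.49, 0.36 and 0.51 in N-MyoF, with overlap. Its MyoF difference of -0.10 ± 0.07 did not pass (limma adjusted p = 0.169), though with equal library sums it did, at -0.15. The 2 metastasis effects on Hoxc4 differed by 0.97 ± 0.09 (limma adjusted p = 1.69e-06). Gm30528, a long noncoding RNA, overlaps Hoxc4 in RefSeq over 10050 bases and cannot be told apart from it without strand.

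Hoxb5, the cluster B gene of airway branching, was at 5.67, 4.79 and 5.43 FPKM in M-MF, against 11.09, 11.73 and 11.51 in N-MF. The groups were far apart, and the log2 difference was -0.98 ± 0.05 (limma adjusted p = 2.74e-09). MyoF libraries stood at 19.77, 18.73 and 20.55 FPKM in M-MyoF, against 24.12, 25.31 and 22.81 in N-MyoF. It fell there too, by 0.28 ± 0.05 on the log2 scale (limma adjusted p = 0.000438), and the fall in MF was the larger by 0.71 ± 0.08 (limma adjusted p = 5.42e-06).

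Hoxb6, whose regulatory region is used to mark lateral plate mesoderm in mice, was at 5.82, 6.23 and 5.28 FPKM in M-MF, against 8.61, 7.89 and 7.48 in N-MF. MyoF libraries stood at 22.78, 22.78 and 22.11 FPKM in M-MyoF, against 26.18, 25.49 and 27.2 in N-MyoF. It fell in both subgroups without overlap, by 0.41 ± 0.05 in MF and 0.21 ± 0.05 in MyoF on the log2 scale (limma adjusted p = 1.53e-05 and 0.00296). A long noncoding RNA, Hoxb5os, overlaps Hoxb5 over 2610 bases and Hoxb6 over 8756, the whole RefSeq span of each. Its reads cannot be told apart from theirs without strand. Hoxb7, known for its activity in the kidney's collecting duct lineage, went the other way in MF, at 1.86, 1.94 and 1.81 FPKM in M-MF against 1.15, 1.36 and 0.92 in N-MF. Its log2 difference was 0.43 ± 0.08 in MF (limma adjusted p = 0.000409) and 0.01 ± 0.08 in MyoF, where it did not pass (limma adjusted p = 0.907) and the libraries overlapped, at 4.43, 4.63 and 4.35 FPKM in M-MyoF against 4.16, 5.17 and 4.02 in N-MyoF.

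Hoxa3, needed in mice for the thymus and parathyroid, was at 3.37, 3.81 and 4.47 FPKM in M-MF, against 6.51, 6.76 and 6.33 in N-MF. It fell by 0.63 ± 0.07 on the log2 scale in MF (limma adjusted p = 4.72e-06). In MyoF it was at 3.93, 3.89 and 4.59 FPKM in M-MyoF, against 3.9, 4.05 and 4.06 in N-MyoF, with overlap and a difference of 0.04 ± 0.07 that did not pass (limma adjusted p = 0.669). The level in N-MF stood apart from the other 9 libraries, which all lay under 5 FPKM. RefSeq Hoxa3 transcripts span Hoxa4, Hoxa5 and Hoxa6 on the same strand, so reads of these genes may have been split between them. Hoxaas3, a long noncoding RNA, overlaps Hoxa3, Hoxa5 and Hoxa6 over 11944, 2834 and 3815 bases and cannot be told apart from them without strand.

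Hoxa5, required in mice for normal airways, was at 4.97, 5.1 and 5.06 FPKM in M-MF, against 3.83, 3.99 and 4.12 in N-MF. The MyoF values were 8.07, 8.27 and 8.74 FPKM in M-MyoF, against 6.83, 7.61 and 7.01 in N-MyoF. It rose in both, without overlap, by 0.28 ± 0.04 in MF and 0.20 ± 0.04 in MyoF on the log2 scale (limma adjusted p = 7.02e-05 and 0.000997). Under equal library sums, median-ratio scaling and quantile normalization the MyoF difference was 0.030, 0.032 and 0.0056 and did not pass, whereas the MF rise passed under each.

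Hoxa2, which patterns the second branchial arch and the hindbrain, moved in opposite directions. It was at 7.74, 6.63 and 7.38 FPKM in M-MF, against 9.12, 8.7 and 8 in N-MF, and fell by 0.22 ± 0.06 on the log2 scale (limma adjusted p = 0.00314). The MyoF values were 9.04, 8.82 and 8.76 FPKM in M-MyoF, against 7.5, 7.34 and 6.8 in N-MyoF, a rise of 0.27 ± 0.06 (limma adjusted p = 0.000765). Neither pair of groups overlapped. Under the 3 other scalings the MyoF rise was between 0.077 and 0.097 and did not pass, but the difference between the 2 effects, -0.49 ± 0.08 as deposited (limma adjusted p = 0.000173), passed under each.

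Hoxa6, a middle gene that patterns thoracic vertebrae, was at 2.75, 2.36 and 2.44 FPKM in M-MyoF, against 1.62, 1.18 and 1.21 in N-MyoF. It rose there without overlap, by 0.59 ± 0.08 on the log2 scale (limma adjusted p = 2.79e-05). In MF it was low and overlapping, at 0.47, 0.61 and 0.44 FPKM in M-MF against 0.42, 0.61 and 0.37 in N-MF, a difference of 0.04 ± 0.08 that did not pass (limma adjusted p = 0.673). Its neighbour Hoxa7 overlapped between metastatic and normal lung in both subgroups, at 2.98, 2.65 and 3.18 FPKM in M-MF against 2.79, 3.04 and 3.36 in N-MF. In MyoF Hoxa7 was at 5.89, 6.28 and 6.67 FPKM in M-MyoF against 6.51, 6.13 and 6.96 in N-MyoF, and its differences of -0.05 ± 0.07 in both did not pass as deposited (limma adjusted p = 0.548 and 0.511). That depended on the scale, since Hoxa7 passed as lower in M-MyoF than N-MyoF under equal library sums, median-ratio scaling and quantile normalization, at -0.21, -0.21 and -0.25, and as lower in M-MF than N-MF after quantile normalization, at -0.197.

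Among the tested genes that the rule for naming did not pick, changes were small on log2(FPKM + 1), which flattens genes this low. Hoxa4 was lower in metastatic lung in both subgroups, at a mean difference of -0.22 ± 0.08 in MF and -0.41 ± 0.08 in MyoF (limma adjusted p = 0.0253 and 0.000374). The MF value did not pass when any 1 of M-MF replicate 1, M-MF replicate 2, N-MF replicate 1 or N-MF replicate 2 was left out. Hoxb3 was lower by -0.25 ± 0.07 in MF and -0.29 ± 0.07 in MyoF. Hoxb4 fell by 0.34 ± 0.06 in MF and rose by 0.21 ± 0.06 in MyoF, where it did not pass under the 3 other scalings. As plain means, Hoxb4 was at 0.607 FPKM in M-MF against 1.04 in N-MF, and Hoxb3 at 0.667 against 0.983. With a pseudocount of 0.1 their MF differences were -0.68 and -0.49. Hoxb2 passed in neither subgroup. In RefSeq all 3372 bases of Hoxb4 lie inside Hoxb3, so reads of this pair may have been split between them. Hoxb3os, a long noncoding RNA, overlaps Hoxb3 over 4897 bases and Hoxb2 over 1763, and cannot be told apart from them without strand.

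In MyoF, 9 of the 15 tested Hox genes passed between M-MyoF and N-MyoF, 5 higher and 4 lower, where 80.7% of all tested genes passed, 49.1% higher and 31.6% lower. The Hox share was below that of all genes. Hoxa10 alone reached 2-fold, where 14.6% of all genes did. Under equal library sums, median-ratio scaling and quantile normalization the split became 2 higher and 7 lower, 2 and 6, and 2 and 6, with Hoxa10 and Hoxa6 the 2 that stayed higher. The deposited values set the median of all genes at 0.11 in this comparison, so a Hox gene at 0 lay slightly under the middle of the table. Of all genes that passed, 59.3% were higher in M-MF than N-MF and 60.8% in M-MyoF than N-MyoF as deposited, against 48.6% and 46.2% with median-ratio scaling and 41.4% and 41.7% after quantile normalization.

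**Figure D4:**
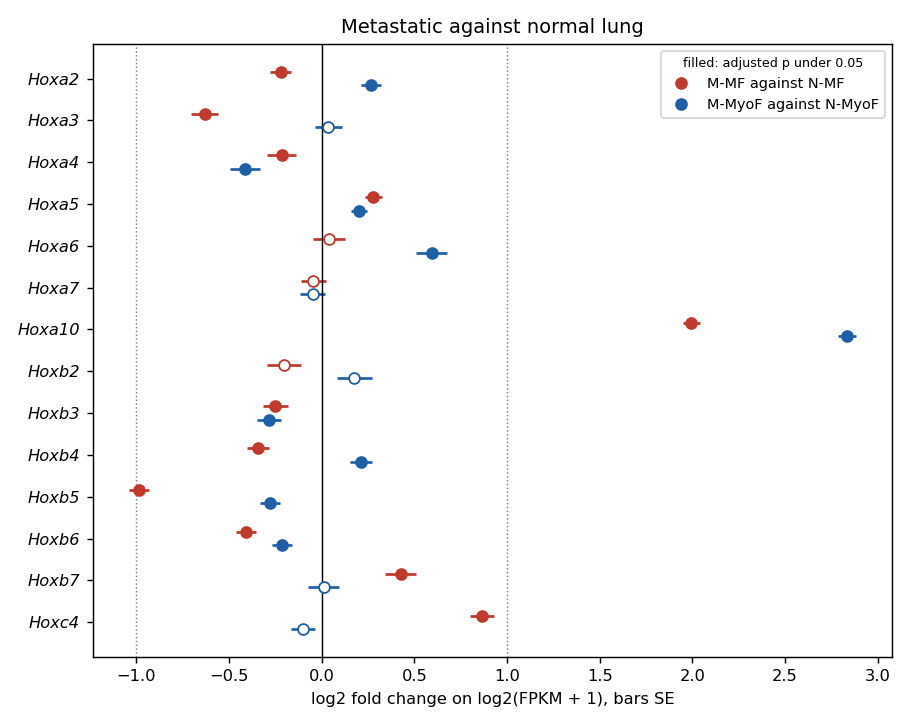
Log2 fold change of 14 tested Hox genes in M-MF against N-MF (red) and M-MyoF against N-MyoF (blue), on log2(FPKM + 1), with SE as bars; filled points passed the test and dotted lines mark 2-fold. Hoxa10 stands alone to the right at 2.00 and 2.84, and Hoxb5 lies furthest left at -0.98 in MF.

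The difference between the 2 metastasis effects, MF minus MyoF, passed for 11 of the 15 Hox genes, 3 of them higher and 8 lower, where 64.4% of all tested genes passed, 26.4% higher and 38% lower. None of the 15 reached 2-fold, where 7.1% of all genes did, and 1 did so without M-MF replicate 2 or without N-MyoF replicate 2. Hoxc4 was the highest at 0.97 and Hoxa10 the lowest at -0.84. The Hoxa10 value sets 2 rises above groups at or near 0 against each other, so its size and sign follow the pseudocount, at -0.49 with 5, -0.77 with 0.1 and 0.31 with 0.01, a setting chosen after seeing the data, and it gives no order of the 2 rises. Under a scaling to equal sums or by median ratio, 10 and 9 of the 15 passed, where 8340 and 8315 of the 13300 tested genes did. The effects in MF and in MyoF share no library, though libraries of the same number deviated together across the groups.

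Most tested Hox genes were lower in MF than in MyoF, and Hoxc4 was higher. These comparisons share their libraries with the metastasis comparisons, so the sets of values are given side by side and not set against each other. In metastatic lung 14 of the 15 passed between M-MF and M-MyoF, 1 higher and 13 lower, where 85.1% of all tested genes passed, 19.1% higher and 66% lower. In normal lung 14 passed between N-MF and N-MyoF, 3 higher and 11 lower, where 82% of all tested genes passed, 24.5% higher and 57.6% lower. At 2-fold or more, 4 Hox genes differed in metastatic lung, where 13.6% of all genes did, and 3 in normal lung, where 16.8% did. These counts follow the pseudocount, at 10 and 7 with 0.1 and 2 and 1 with 5. The Hox median was -0.87 in metastatic and -0.63 in normal lung, against -0.29 and -0.21 over all genes. Over all genes most calls were lower in MF too, and the balance moved with the scale: 22.4% of calls were higher in metastatic and 29.8% in normal lung as deposited, 28.9% and 31.6% with equal library sums, 42.5% and 45.7% with median-ratio scaling and 46.7% and 51.4% after quantile normalization. With median-ratio scaling the median of all genes was -0.07 and -0.05, and 11 Hox genes were still lower in MF in each.

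The cluster B genes Hoxb5, Hoxb6 and Hoxb7 were all lower in MF. Hoxb6 averaged 5.78 FPKM in M-MF and 22.6 in M-MyoF, and 7.99 in N-MF and 26.3 in N-MyoF. Its log2 difference was -1.80 ± 0.05 in metastatic lung and -1.60 ± 0.05 in normal lung (limma adjusted p = 5.46e-12 and 1.40e-11). Hoxb5 differed by -1.72 ± 0.05 in metastatic lung and -1.01 ± 0.05 in normal lung (limma adjusted p = 9.67e-12 and 1.81e-09). Hoxb7 differed by -0.93 ± 0.08 in metastatic lung and -1.35 ± 0.08 in normal lung (limma adjusted p = 2.71e-07 and 6.55e-09). No MF library reached a MyoF library in any of the 3 genes.

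In cluster A the middle genes were also lower in MF. Hoxa7 averaged 2.94 FPKM in M-MF and 6.28 in M-MyoF, and 3.06 in N-MF and 6.53 in N-MyoF, a difference of -0.89 in both lungs. Hoxa5 differed by -0.63 ± 0.04 in metastatic and -0.71 ± 0.04 in normal lung, and Hoxa6 by -1.22 ± 0.08 and -0.67 ± 0.08. The order between clusters follows the pseudocount: with 0.1, Hoxa6 was at -2.12 in metastatic lung, below Hoxb6 at -1.95 and Hoxb5 at -1.88. Hoxa10 differed by -0.87 ± 0.05 in metastatic lung (limma adjusted p = 1.85e-09), and in normal lung, where both subgroups were at or near 0, the difference of -0.03 ± 0.05 did not pass (limma adjusted p = 0.526).

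The genes that did not follow were Hoxc4 and the front of cluster A. Hoxc4 was higher in MF by 1.96 ± 0.07 on the log2 scale in metastatic lung and by 0.99 ± 0.07 in normal lung (limma adjusted p = 1.64e-11 and 1.44e-08). Every MF library, at 1.83 FPKM or more, lay above every MyoF library, at 0.51 or less. Hoxa3 and Hoxa2 were higher in MF in normal lung, by 0.59 ± 0.07 and 0.23 ± 0.06. In metastatic lung Hoxa3 did not pass (-0.08 ± 0.07, limma adjusted p = 0.345), though it did, at -0.16, without M-MF replicate 3. Hoxa2 was lower in MF there, at -0.26 ± 0.06. That last sign is tied to the scale, since Hoxa2 stood at -0.026 with median-ratio scaling and at 0.052 after quantile normalization, and passed in neither.

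**Figure D5:**
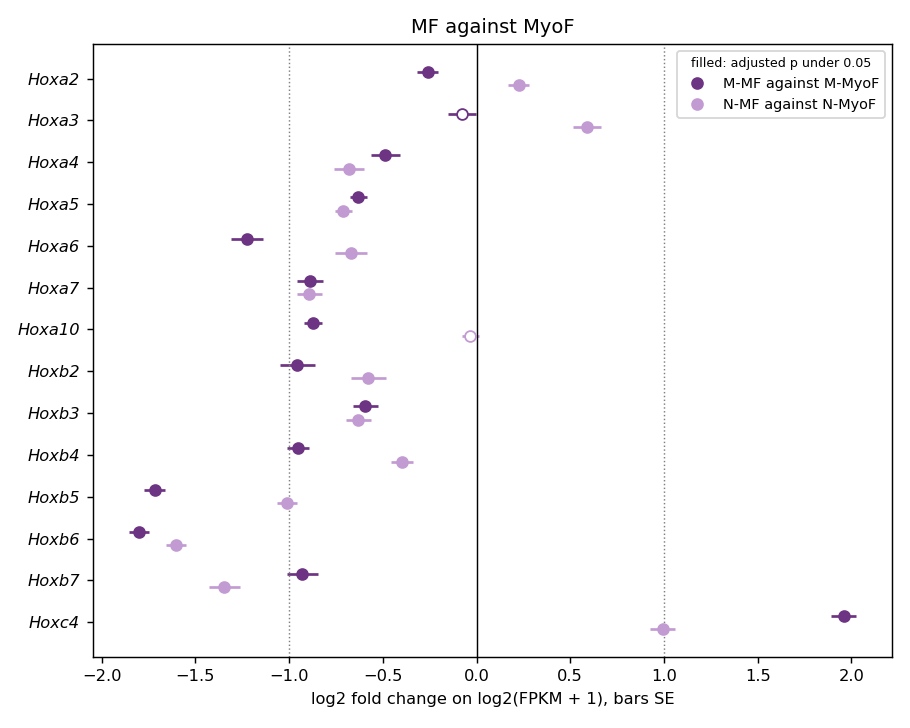
Log2 fold change of 14 tested Hox genes in M-MF against M-MyoF (dark) and N-MF against N-MyoF (light), on log2(FPKM + 1), with SE as bars; filled points passed the test and dotted lines mark 2-fold. Hoxb5 and Hoxb6 lie furthest left in metastatic lung, at -1.72 and -1.80, and Hoxc4 alone stands far to the right, at 1.96 and 0.99.

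Other cell types differed between the subgroups as well. Airway and alveolar epithelial markers summed to between 2920.8 and 2945.9 FPKM in M-MF, 2420.6 and 2469.9 in N-MF, 15816.7 and 16363.1 in M-MyoF and 19458.7 and 19970.4 in N-MyoF. Atrial muscle markers, 7 genes, summed to between 9.7 and 12.1 FPKM in M-MF, 44 and 46.4 in N-MF, 142.8 and 147.8 in M-MyoF and 1017.7 and 1055.2 in N-MyoF. Cartilage markers, 7 genes, ranged between 51.1 and 52.6 FPKM in M-MF, 78.8 and 79.1 in N-MF, 65.8 and 66 in M-MyoF and 351.8 and 357 in N-MyoF. The endothelial sums given above were likewise lower in every MF than in every MyoF library, and macrophage markers, 8 genes, ranged between 9.3 and 17.2 in MF and between 32.4 and 50.1 in MyoF. One cartilage marker was at 0 in M-MF and 1 macrophage marker in each MF group. The part of these cells in the Hox differences between MF and MyoF was not tested.

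The 22 Hox genes that stayed low were counted in a fit without a filter, as a description of values near 0. Between M-MF and N-MF, 3 of the 22, Hoxc5, Hoxd3 and Hoxd8, passed and were higher, where 56.1% of all genes passed without the filter. Hoxc5, the neighbour of Hoxc4, was at 0.54, 0.74 and 0.76 FPKM in M-MF against 0.19, 0.16 and 0.21 in N-MF, with a log2 difference of 0.50 ± 0.05 (limma adjusted p = 5.87e-06). In MyoF it was at 0.05, 0.05 and 0.12 FPKM in M-MyoF against 0.25, 0.15 and 0.19 in N-MyoF. Hoxc5 thus lay highest in the group in which Hoxc4 was highest.

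Between M-MyoF and N-MyoF, Hoxd4, Hoxd8, Hoxd9 and Hoxd10 were higher and Hoxb1, Hoxb8, Hoxc5 and Hoxc6 lower in the same fit, 8 of the 22, where 61.6% of all genes passed. Hoxd9 was at 0.14, 0.31 and 0.35 FPKM in M-MyoF against 0.02, 0.03 and 0 in N-MyoF. Hoxd8 was at 0.31, 0.29 and 0.26 FPKM in M-MF against 0.06, 0.11 and 0.11 in N-MF, and at 0.25, 0.16 and 0.21 in M-MyoF against 0, 0.13 and 0.13 in N-MyoF. Cluster D as a whole summed to 0.49 ± 0.052 FPKM in M-MF and 0.19 ± 0.0458 in N-MF, and to 0.633 ± 0.0473 in M-MyoF and 0.117 ± 0.0666 in N-MyoF, without overlap in either subgroup. Levels this small were rounded to 2 decimals in the deposited table, and the log2(FPKM + 1) scale flattens them.

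Among the DNA-binding partners of Hox proteins, Meis1 and Pknox2 were lower in metastatic lung in both subgroups. Of 9 TALE cofactor genes, 3 were higher and 4 lower in M-MF than N-MF, and 0 higher and 4 lower in M-MyoF than N-MyoF, with medians of -0.03 and -0.14 on the log2 scale beside 0.08 and 0.11 over all genes. Over all tested genes 46.3% were higher and 31.8% lower in M-MF than N-MF, and 49.1% higher and 31.6% lower in M-MyoF than N-MyoF, and the counts of the lists that follow stand beside the same shares and medians. Meis1 averaged 43.3 FPKM in M-MF and 59.4 in N-MF, and 56.9 in M-MyoF and 81.0 in N-MyoF, falling by 0.45 ± 0.03 and 0.50 ± 0.03 on the log2 scale (limma adjusted p = 5.84e-09 and 1.55e-09). Pknox2 fell by 0.56 ± 0.04 in MF and 0.33 ± 0.04 in MyoF. Between the subgroups Meis2 was higher in MF by 1.22 ± 0.04 in metastatic and 0.999 ± 0.040 in normal lung, with 14.8 FPKM in M-MF, 12.6 in N-MF, 5.76 in M-MyoF and 5.82 in N-MyoF. Pbx3 was lower in MF, by -1.40 ± 0.06 and -0.87 ± 0.06.

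Among the Polycomb genes, which encode the complexes that silence Hox clusters, the 11 of complex PRC2 counted 6 higher and 4 lower in M-MF than N-MF and 6 higher and 3 lower in M-MyoF than N-MyoF, with medians of 0.25 and 0.13 beside 0.08 and 0.11 over all genes; the counts lie near the shares of all genes. Phf19, an accessory PRC2 subunit, averaged 2.03 FPKM in M-MF and 0.377 in N-MF, and 4.71 in M-MyoF and 0.543 in N-MyoF, a rise of 1.14 ± 0.07 and 1.88 ± 0.07 on the log2 scale. Of 15 tested PRC1 genes, 4 were higher and 7 lower in MF and 7 higher and 4 lower in MyoF, with medians of -0.06 and -0.03. Cbx7, which reads the Polycomb mark, averaged 2.83 FPKM in M-MF and 7.44 in N-MF, and 8.31 in M-MyoF and 14.4 in N-MyoF, falling by 1.14 ± 0.04 and 0.73 ± 0.04. Kdm6b, a demethylase that removes the Polycomb mark, averaged 12.4 FPKM in M-MF and 25.7 in N-MF, and 21.5 in M-MyoF and 61.0 in N-MyoF, and fell by 1.002 ± 0.029 and 1.46 ± 0.03. Trithorax and demethylase genes together, 11 in number, counted 3 higher and 3 lower in MF and 4 higher and 4 lower in MyoF, with medians of -0.02 and 0.07. Of these 11, none was higher and 10 lower in M-MF than M-MyoF, and 1 was higher and 10 lower in N-MF than N-MyoF, where 66% and 57.6% of all tested genes were lower.

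The list of Cdx genes, homeobox regulators of Hox clusters, and retinoic acid receptors held 9 genes, of which the Cdx genes stayed at 0.14 FPKM or less and were not tested. Of the 6 receptor genes, all tested, 4 were higher and 2 lower in M-MF than N-MF, and 2 higher and 4 lower in M-MyoF than N-MyoF, with medians of 0.14 and -0.29. Rarg averaged 31.4 FPKM in M-MF and 61.9 in N-MF, and 27.6 in M-MyoF and 37.1 in N-MyoF, and fell by 0.96 ± 0.03 and 0.41 ± 0.03 on the log2 scale. Rarb moved in opposite directions, at 8.93 FPKM in M-MF and 5.79 in N-MF, and 4.4 in M-MyoF and 7.63 in N-MyoF. The 2 Rarb effects, 0.55 ± 0.05 in MF and -0.68 ± 0.05 in MyoF, differed by 1.23 ± 0.07 (limma adjusted p = 1.33e-08).

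The clusters were compared last with the 40 genes that flank them in RefSeq, 5 on each side of each cluster, of which 35 were tested. Of these, 18 were higher and 8 lower in M-MF than N-MF, and 21 higher and 6 lower in M-MyoF than N-MyoF, with medians of 0.12 and 0.29 beside 0.08 and 0.11 over all genes. Over all tested genes 46.3% were higher and 31.8% lower in MF, and 49.1% and 31.6% in MyoF. On the log2 scale the largest rises were those of Nfe2l3 in MF and Nfe2 in MyoF. Nfe2l3, on the paralog 1 side of cluster A, averaged 3.79 FPKM in M-MF and 0.16 in N-MF, and 2.01 in M-MyoF and 0.803 in N-MyoF. Nfe2, on the paralog 1 side of cluster C, averaged 0.58 FPKM in M-MF and 0.4 in N-MF, and 13.49 in M-MyoF and 0.763 in N-MyoF. Skap2, an adaptor gene on the paralog 1 side of cluster A, averaged 51.5 FPKM in M-MF and 28.4 in N-MF, and 64.5 in M-MyoF and 50.3 in N-MyoF. Mtx2, a mitochondrial import gene on the paralog 1 side of cluster D, averaged 50.2 FPKM in M-MF and 26.9 in N-MF, and 51.7 in M-MyoF and 21.2 in N-MyoF. Calcoco1, on the paralog 13 side of cluster C, ran the other way at 41.5 FPKM in M-MF and 48.6 in N-MF, and 54.9 in M-MyoF and 81.7 in N-MyoF. Evx1 and Evx2, homeobox genes on the paralog 13 sides of clusters A and D, stayed at 0.05 FPKM or less in every library; they were named for their place and after their values were seen. The table held 0 non-Hox rows between the first and last Hox gene of any cluster, so the noncoding RNAs there are not analysed here.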

How the data were processed

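RNA of 12 mouse lung fibroblast libraries was analysed, grouped by their titles, 3 per group. The values are FPKM computed by the authors, deposited with 2 decimals; the build was GRCm38 per the submitters' processing notes, and aligner, counting tool, annotation and sorting are not stated in the sources used here. All columns belonged to listed samples. The read depth is unknown, so precision rests on the spread between libraries. Values were analysed as log2(FPKM + 1), which understates the change of low genes, in R 4.3.3 with limma 3.58.1. The 13300 genes that reached 1 FPKM in 3 or more libraries entered 1 linear model of the 4 group means with a mean-variance trend, and 5 contrasts were tested, 4 between pairs of groups and the difference between the 2 metastasis effects. Benjamini-Hochberg adjustment of the p-values ran over the 13300 genes, with 0.05 as the threshold. The procedure was also run on simulated data with independent noise in each library. That setting lacks the shared deviation of same-number libraries described below, so its effect on the p-values was not tested there. The members, the companion and marker lists and the tests were chosen with earlier results of these data known. Values in every library are given for Hox genes with a group mean of at least 5 FPKM, or with at least 1 FPKM in the higher group of a pair that passed at 2-fold or more. Of each companion list up to 4 genes with the smallest adjusted p in a contrast may be named, and up to 4 flanking genes a cluster.

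No label says what the library numbers mark. Deviations from the group means were correlated over 1830 genes at 50 FPKM or more. The 18 same-number pairs gave 0.482 to 0.796 and the 36 other pairs -0.683 to 0.38, so libraries of the same number deviated together. The p-values printed here come from fits that did not use the number. A fit with the number as a replicate block was run as an alternative. Other alternatives were pseudocounts of 0.1 and 5, no filter, a filter of 5 FPKM, equal library sums, median-ratio scaling, quantile normalization, fits of the compared groups alone, no trend, and leaving out each library or the 4 numbered 3. Python 3.11.15 with numpy 2.4.6, pandas 2.3.3 and matplotlib 3.10.9 made tables and figures. Positions and promoter windows came from RefSeq GRCm38.p6. Single-gene values of some tested genes are not reported here, though they stay in the fits, the sums and the counts.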

Additional observations from a re-analysis of the deposited data

Results flagged for a closer look

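For 10 Hox genes described here the difference between metastatic and normal lung was not the same in MF and in MyoF, by a test of the difference itself (limma, adjusted p under 0.05, against 64.4% of all tested genes). As the effect in MF minus the effect in MyoF on the log2 scale, with the limma adjusted p, the values were 0.97 (1.69e-06) for Hoxc4 and 0.42 (0.00771) for Hoxb7. They were -0.84 (2.66e-07) for Hoxa10, where the groups from normal lung were at or near 0 and the sign turned to 0.31 with a pseudocount of 0.01, -0.71 (5.42e-06) for Hoxb5 and -0.67 (0.00012) for Hoxa3. They were -0.56 (8.58e-05) for Hoxb4, -0.55 (0.00145) for Hoxa6 and -0.49 (0.000173) for Hoxa2. The smallest were -0.38 (0.0243) for Hoxb2 and -0.20 (0.0392) for Hoxb6.

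Hoxa2 and Hoxb4 fell in MF and rose in MyoF as deposited, with the rises not passing under the 3 other scalings. For Hoxb6 the difference did not pass under any of the 3 other scalings, at -0.11, -0.13 and -0.046, nor with a pseudocount of 5 (-0.087) or without a filter (-0.197). It also did not pass without any 1 of M-MF replicates 1 and 3, N-MF replicates 1 and 2, M-MyoF replicates 1 and 2 and N-MyoF replicates 1 and 2. For Hoxb2 it did not pass with equal sums (-0.30) or median-ratio scaling (-0.32), nor without N-MF replicate 1, N-MF replicate 3 or M-MyoF replicate 2, and it was -0.18 without the 4 libraries numbered 3.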

How the results depend on the processing

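The replicate block left every count of Hox genes that passed as it was, at 12, 9, 14, 14 and 11, and changed no call of a single Hox gene. Counts are in the order metastatic against normal lung in MF and then in MyoF, MF against MyoF in metastatic and then in normal lung, and the difference between the metastasis effects. A filter of 5 FPKM left 7 Hox genes to test, of which 6, 5, 6, 6 and 5 passed. Of the 9628 genes tested under it, 8036, 8260, 8425, 8126 and 6669 passed, in the same order. Without a filter 17 of 37 Hox genes passed between M-MyoF and N-MyoF, where 61.6% of all genes did. At 2-fold or more, a pseudocount of 0.1 gave 3 Hox genes between M-MF and N-MF, 10 between M-MF and M-MyoF, 7 between N-MF and N-MyoF and 1 for the difference of effects. A pseudocount of 5 gave 0, 2 and 1 for the first 3 of these, and the filter of 5 FPKM gave 2 between M-MF and M-MyoF. Each of the 3 other scalings (equal sums, median ratios, quantiles) gave 2 between M-MF and N-MF. Leaving out 1 library gave 1 to 2 between M-MF and N-MF and 0 to 1 for the difference of effects. The share of all genes at 2-fold or more was counted only for the main fit, so these counts have no such share beside them.

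Signs reversed for small differences and for 1 that rests on values near 0. The difference of effects of Hoxa10 was 0.31 with a pseudocount of 0.01, chosen after seeing the data. Under these scalings, in that order, Hoxa3 was 0.01, 0.13 and 0.28 between M-MF and M-MyoF and -0.12, -0.12 and -0.15 between M-MyoF and N-MyoF, and Hoxb7 was -0.14, -0.14 and -0.18 between M-MyoF and N-MyoF. Under median-ratio scaling and quantile normalization Hoxa6 was -0.0012 and -0.11 between M-MF and N-MF. Hoxa2 was 0.052 after quantile normalization between M-MF and M-MyoF. Without the 4 libraries numbered 3, Hoxa3 and Hoxb7 were -0.019 and -0.029 between M-MyoF and N-MyoF. Leaving out 1 library gave -0.16 to 0.00070 for Hoxa3 between M-MF and M-MyoF, -0.027 to 0.069 for Hoxa3 and -0.045 to 0.10 for Hoxb7 between M-MyoF and N-MyoF, and -0.0081 to 0.11 for Hoxa6 and -0.095 to 0.0078 for Hoxa7 between M-MF and N-MF. The summed level of cluster A in M-MF over N-MF, a log2 ratio of 0.006 as deposited, was -0.11 and -0.12 with equal sums and median-ratio scaling, and that of all 4 clusters in M-MyoF over N-MyoF, 0.03 as deposited, was -0.17 and -0.16. These 2 scalings of the sums were chosen after seeing the data. The causes of these reversals were not tested. The unknown depth limits what can be said of the 22 genes under 1 FPKM.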
